A study of Mus musculus with 6 samples.

Results

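Zic1, Zic2, Zic4 and Zic5 were followed by RNA-seq in control and Rx-Dicer mouse embryos, in tissue from the rostral end of the telencephalic primordium. These 4 genes were taken by name from the 55471 gene identifiers in the count tables. Each was detected in all 6 libraries, and all 4 were among the 17127 genes tested.

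ZIC proteins are transcription factors with C2H2 zinc fingers related to those of the GLI factors of Hedgehog signaling. In the embryonic forebrain their genes are known for expression along the dorsal and rostral midline, including the septum, the roof plate and the cortical hem, and also in the meninges and in Cajal-Retzius neurons. Loss of ZIC2 function is a known cause of holoprosencephaly, a failure of the forebrain to divide at the midline, and deletion of ZIC1 together with ZIC4 is associated with Dandy-Walker malformation of the cerebellum. The genes lie as head-to-head pairs in the genome, Zic1 with Zic4 and Zic2 with Zic5.

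All embryos were at E11.5 and all carried floxed Dicer, the allele of the RNase that makes mature microRNAs (miRNAs). The 3 control libraries came from DicerF/F embryos, although their genotype label reads WT. The 3 Rx-Dicer libraries came from RxCre-Dicer F/F embryos, in which a transgene with Rx regulatory sequence drives Cre in the eye field and the rostral and ventral forebrain. The Rx3-Cre line was kept on a CD1 background and the floxed allele on C57BL/6. The sources do not state whether a library held 1 embryo or several, so that p-values measure only the spread between these libraries. Libraries were directional, and values are read counts per gene divided by a size factor per library (normalized counts).

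The libraries held between 34471501 and 48373468 counts in genes, and the lowest Zic level in any of them was 36.1 CPM (reads scaled to the library total), where 3 counts correspond to at most 0.0870 CPM. The 2 sequencing files of each library gave Zic levels whose ratio lay between 0.894 and 1.12. Markers of telencephalic neuroepithelium (Lhx2, Emx2, Pax6 and 5 others) were present throughout, at a summed 38803 to 47210 normalized counts. Lhx2, at 14071 to 22363, was the largest part of this sum, and some markers varied far more than the sum did. Dlx2 ranged from 717 to 4079 and Gsx2 from 138 to 1062, both highest in Rx-Dicer 2. Dicer1 was at 6355, 7070 and 6270 normalized counts in controls 1 to 3 and at 4777, 7002 and 4644 in Rx-Dicer 1 to 3. Rx-Dicer 2 was therefore within the control range, but these counts cover the whole gene and do not measure loss of the floxed part. Control 1 stood apart from controls 2 and 3 in the 4 Zic genes, and the Zic fold changes and pair ratios are given below with and without it.

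Because the 4 genes turned out to share a library pattern, their start regions are shown first. In GENCODE coordinates of GRCm38, Zic1 (ENSMUSG00000032368) spans chr9:91358058-91365810 on the minus strand and Zic4 (ENSMUSG00000036972) spans chr9:91362413-91389348 on the plus strand. Their annotated spans overlap, but on opposite strands, and counting used strand. The RefSeq start sites of this pair are 3204 bases apart. Zic5 (ENSMUSG00000041703) spans chr14:122456795-122465677 on the minus strand and Zic2 (ENSMUSG00000061524) spans chr14:122475435-122479852 on the plus strand, with 9777 bases from the RefSeq start of Zic5 to the GENCODE start of Zic2. RefSeq windows of GRCm38.p6 from 250 bases before to 50 after the start site were matched for 3 of the 4 genes, at chr9:91365719-91366018 for Zic1, chr9:91368722-91369021 for Zic4 and chr14:122465609-122465908 for Zic5. They are given 5′ to 3′ on the strand of the gene, with capitals marking matches to any of the motifs listed below them.
Zic1 promoter: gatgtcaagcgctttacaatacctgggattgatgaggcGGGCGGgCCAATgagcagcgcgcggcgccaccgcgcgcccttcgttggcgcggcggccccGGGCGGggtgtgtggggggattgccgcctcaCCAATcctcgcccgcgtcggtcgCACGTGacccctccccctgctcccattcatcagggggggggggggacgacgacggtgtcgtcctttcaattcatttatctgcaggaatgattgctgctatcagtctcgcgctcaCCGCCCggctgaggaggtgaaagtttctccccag
Zic4 promoter: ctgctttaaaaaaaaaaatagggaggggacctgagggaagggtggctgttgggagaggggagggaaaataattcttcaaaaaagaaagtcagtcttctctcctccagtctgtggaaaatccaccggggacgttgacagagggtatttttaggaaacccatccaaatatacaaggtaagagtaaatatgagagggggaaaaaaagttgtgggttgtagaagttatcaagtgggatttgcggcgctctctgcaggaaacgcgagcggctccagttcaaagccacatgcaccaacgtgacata
Zic5 promoter: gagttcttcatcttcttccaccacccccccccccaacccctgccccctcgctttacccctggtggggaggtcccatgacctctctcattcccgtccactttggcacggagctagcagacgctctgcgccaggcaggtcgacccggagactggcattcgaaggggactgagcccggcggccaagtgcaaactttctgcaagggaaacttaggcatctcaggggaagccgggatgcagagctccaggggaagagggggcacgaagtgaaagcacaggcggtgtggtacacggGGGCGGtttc
The Zic1 window held 3 GC boxes (GGGCGG), 2 CCAAT boxes (CCAAT) and 1 palindromic E-box (CACGTG). The Zic5 window held 1 GC box. The Zic4 window held none of the 8 motifs searched on both strands. Among all 32817 windows of this length, a GC box was found in 35.6%, a CCAAT box in 37.4% and the E-box in 7.15%. The other 5 motifs, none of which was in these 3 windows, were the TATA box (TATAAA, 13.6% of all windows), a ZIC core (CCTGCTG, 10.5%), a GLI core (GGGTGGTC, 0.807%), a TCF/LEF core (CTTTGAT, 3.73%) and a homeobox core (TAATTA, 5.30%). GC content was 65.3% for Zic1 and 62.7% for Zic5, above the median window at 52.7%, and 46.0% for Zic4, below it. These windows of Zic1 and Zic4 thus differed in base composition and shared no motif of the 8. The Zic4 window lies inside the GENCODE span of the gene, past its start at chr9:91362413, and other start sites were not examined.

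Since Dicer is needed to make miRNAs, the 3′ UTRs of the Zic transcripts were searched for the 7-base words that pair with bases 2 to 8 (the seed) of 7 miRNAs known from embryonic brain. The mature RefSeq sequences of the 3 with a match, and of let-7a, are given with the seed in capitals.
let-7a-5p: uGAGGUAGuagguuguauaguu
miR-9-5p: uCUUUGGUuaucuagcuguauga
miR-9-3p: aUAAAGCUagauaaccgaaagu
miR-17-5p: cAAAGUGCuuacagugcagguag
The longest annotated 3′ UTRs were 3511 bases for Zic1, 609 for Zic2, 2813 for Zic4 and 2538 for Zic5. In all, 4 words were found, each shown with its flanks on the strand of the transcript and with the word in capitals.
Zic5, miR-9-5p word at chr14:122457493-122457499: ttcaaagcacACCAAAGaaatatatta
Zic1, miR-9-3p word at chr9:91360439-91360445: aacctgtgccAGCTTTAgtggatcttg
Zic1, miR-9-3p word at chr9:91359380-91359386: cccttctgagAGCTTTAcatgtgtttc
Zic1, miR-17-5p word at chr9:91358800-91358806: agttttaacaGCACTTTtgtgattttc
The word of miR-9-5p was also in 21.8% of tested genes with a 3′ UTR of a length like that of Zic5. For Zic1, the corresponding shares were 28.7% for miR-9-3p and 30.0% for miR-17-5p. No word of let-7a-5p, miR-92a-3p, miR-99a-5p or miR-125b-5p was found in the 4 genes, and the 3′ UTRs of Zic2 and Zic4 held none of the 7 words. A word is a description of the letters only, and sites of other kinds were not searched.

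The first question was whether the Zic genes differed between control and Rx-Dicer embryos. No Zic gene passed the test between the genotypes when all 6 libraries were used, and in each of the 4 the Rx-Dicer libraries lay between control 1 and the other two controls. Zic1, the most abundant of the 4 and known for its role in cerebellar and midline development, was at 28132, 16946 and 17137 normalized counts in controls 1 to 3 and at 20621, 20507 and 21252 in Rx-Dicer 1 to 3. The controls thus spread widely around 3 nearly equal Rx-Dicer values. The fitted log2 fold change (Rx-Dicer minus control) was 0.0039 ± 0.19 (SE), with a 95% interval from -0.36 to 0.37 and an adjusted p of 0.998 (DESeq2 Wald test).

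Zic4, the neighbor of Zic1, was at 7644, 2896 and 2776 normalized counts in the controls and at 3976, 4113 and 3636 in the Rx-Dicer libraries. Control 1 was the highest library by a wide margin and controls 2 and 3 were the lowest. The log2 fold change was -0.18 ± 0.50, with an interval from -1.17 to 0.81 and an adjusted p of 0.960 (DESeq2). This was the widest interval of the 4 genes.

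Zic2, the holoprosencephaly gene, was at 8460, 4319 and 4609 normalized counts in the controls and at 6553, 5691 and 6586 in the Rx-Dicer libraries. Zic5, which adjoins Zic2 and is known for roles in neural crest and neural tube closure, was at 3678, 1686 and 1514 in the controls and at 2853, 2511 and 3018 in the Rx-Dicer libraries. In both genes each Rx-Dicer library was above controls 2 and 3 and below control 1. The log2 fold change was 0.12 ± 0.22 for Zic2 (interval -0.32 to 0.55, adjusted p = 0.932, DESeq2). For Zic5 it was 0.29 ± 0.42 (interval -0.53 to 1.10, adjusted p = 0.896, DESeq2).

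**Figure D1:**
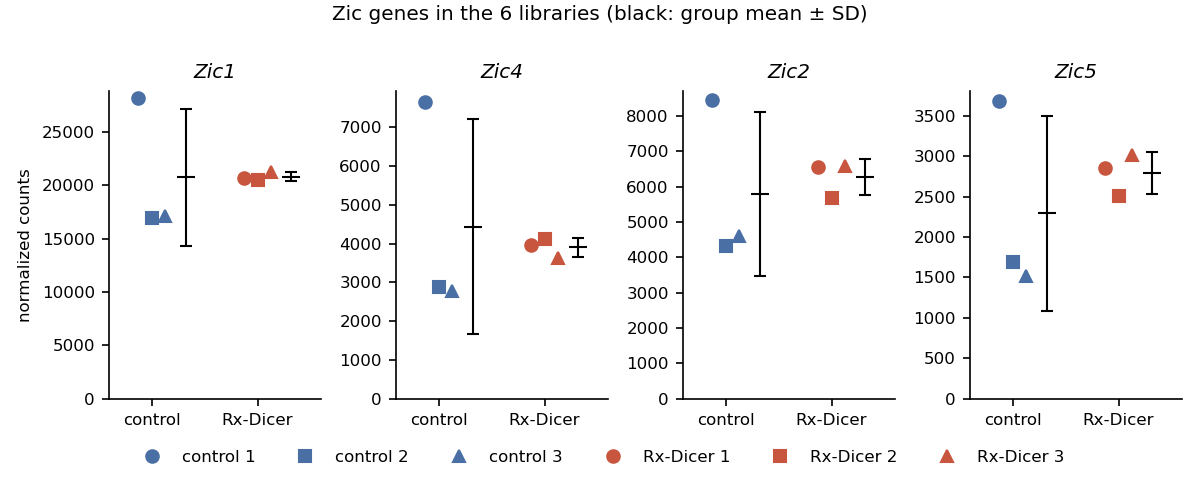
Normalized counts (y axis, from 0, with a scale per gene) of the 4 Zic genes in each control (blue) and Rx-Dicer (red) library; marker shape gives the replicate number, and black bars show the group mean ± SD (n = 3). In Zic1, Zic4, Zic2 and Zic5 the blue circle, control 1, is above all red points and the other two blue points are below them.

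A gene was called where the adjusted p was under 0.05 and the fold change exceeded the minimum used in the study. By this rule 0 of the 4 Zic genes were called, against 502 of the 17127 genes tested (2.93%). None of the 4 had an unadjusted p under 0.05, either in DESeq2 or in the edgeR quasi-likelihood test. Over all genes, 2324 of the 30918 given a p by DESeq2 and 2313 of 17954 in edgeR had one. With these shares, 0 of 4 is not unusual. The intervals were wide, reaching 1.10 log2 units above 0 for Zic5, and do not show that Zic expression was equal in the genotypes.

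The spread of the Zic genes lay almost wholly among the controls. Their coefficient of variation in the controls was 30.9% for Zic1, 39.9% for Zic2, 62.6% for Zic4 and 52.5% for Zic5. In the Rx-Dicer libraries it was 1.93%, 8.08%, 6.28% and 9.25% for the same genes. Control 1 exceeded the mean of controls 2 and 3 by 1.65-fold for Zic1, 1.90-fold for Zic2, 2.70-fold for Zic4 and 2.30-fold for Zic5. The 2 lower controls were close to each other in each of the 4 genes, with the largest coefficient of variation between them at 7.57%, in Zic5.

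Leaving out control 1 therefore changed the result. Without it, Zic5 was 1.75-fold higher in Rx-Dicer (log2 fold change 0.80 ± 0.14, adjusted p = 2.31e-06, DESeq2), Zic2 was 1.40-fold higher (0.49 ± 0.12, adjusted p = 0.0051) and Zic4 was 1.38-fold higher (0.46 ± 0.12, adjusted p = 0.0044). Zic1 was 1.22-fold higher (0.29 ± 0.089, adjusted p = 0.041), which is under the fold minimum. In this fit 3 of the 4 Zic genes were called higher, against 421 of 16877 genes tested (2.49%). Each library was left out in turn, and control 1 is 1 of the 3 labelled controls, with no label that sets it aside. With edgeR on the same 5 libraries, 0 of the 4 were called. Its adjusted p-values were 0.264 for Zic1, 0.152 for Zic2, 0.147 for Zic4 and 0.0729 for Zic5, and 19 of 17737 genes were called higher (0.107%). All 4 had an unadjusted p under 0.05 in that fit, as did 2258 of all its genes (12.7%).

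**Figure D2:**
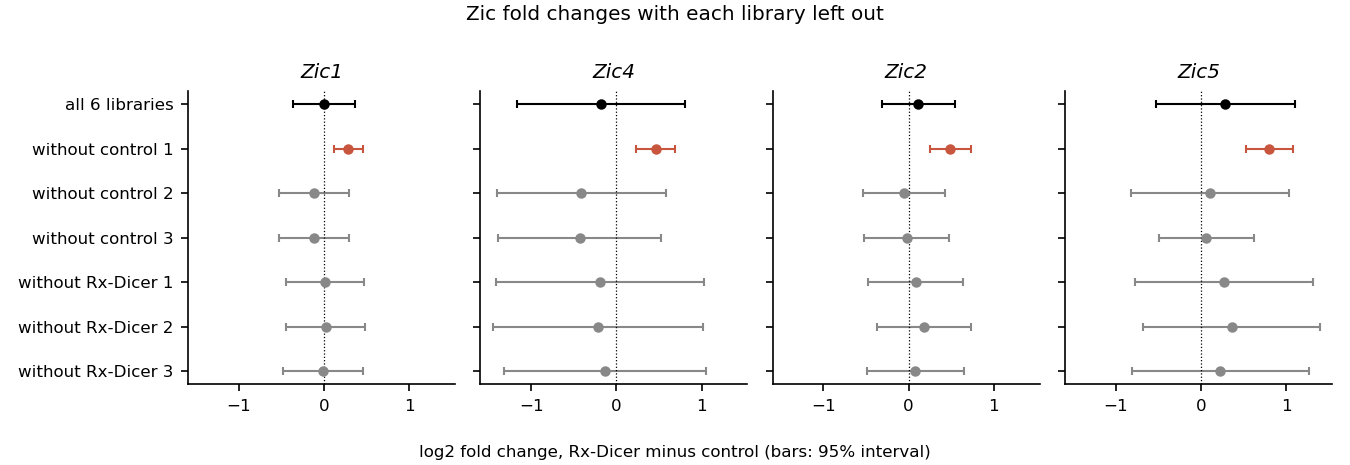
Log2 fold change (x axis, Rx-Dicer minus control) of Zic1, Zic4, Zic2 and Zic5 with all 6 libraries (black), without control 1 (red) and without each other library (gray); bars are 95% intervals from the DESeq2 standard error. Only the intervals without control 1 lie wholly above 0 among the 7 fits of each gene.

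Leaving out any other library called no Zic gene. Without Rx-Dicer 2, the library with Dicer1 counts at the control level, the log2 fold changes were 0.02 for Zic1, 0.18 for Zic2, -0.22 for Zic4 and 0.36 for Zic5. The direction of Zic4 was therefore set by control 1, as it was negative in every fit that included that library.

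The 4 genes shared the order control 1, then all Rx-Dicer libraries, then controls 2 and 3. This order was noticed after the values were seen, and is a description. It was found in 298 of the 17127 genes tested (1.74%). As each of the 4 Zic genes had this order, their sum had it too and adds no support. The sum was 47914, 25847 and 26036 normalized counts in the controls and 34003, 32823 and 34492 in the Rx-Dicer libraries. In bulk tissue, fewer Zic-expressing cells and less Zic RNA per cell cannot be told apart.

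Some genes of midline signaling centers differed between the libraries in a related way. Fgf8, Fgf17, Wnt3a, Wnt8b and Bmp6 were named for this after their values were seen. Other genes of the lists did not share it, such as Bmp4, at 470, 162 and 529 normalized counts in the controls and 381, 534 and 349 in the Rx-Dicer libraries. Neither did Fgf15 (1427, 1581 and 2181 against 1498, 3387 and 1517) or Lmx1b (446, 214 and 676 against 306, 553 and 482). Fgf8, the signal of the rostral patterning center, was at 838, 3.06 and 1.88 normalized counts in the controls and at 993, 621 and 662 in the Rx-Dicer libraries. Fgf17, of the same center, was at 4720, 256 and 358 in the controls and at 4558, 2547 and 2612 in the Rx-Dicer libraries. Wnt3a, a signal of the cortical hem, was at 519, 1.02 and 23.5 in the controls and at 543, 261 and 231 in the Rx-Dicer libraries. Controls 2 and 3 were thus almost without Fgf8, while control 1 was at the level of the Rx-Dicer libraries. Wnt8b, expressed in the hem, was at 5897, 1842 and 320 in the controls against 5582, 2712 and 3575 in the Rx-Dicer libraries, and Bmp6, of the dorsal midline, was at 446, 21.4 and 26.3 against 392, 292 and 247. DESeq2 gave no adjusted p for Fgf8, Fgf17 and Wnt3a, and Wnt8b and Bmp6 were not called (adjusted p = 0.929 and 0.883). Control 1 decided these values as well. Without it, Bmp6 went from a log2 fold change of 0.92 to 3.70 (adjusted p = 2.12e-23), Fgf17 from 0.87 to 3.40 (4.42e-28) and Wnt3a from 0.93 to 4.81 (0.011), and all 3 were called higher by DESeq2. Fgf8 was called too (adjusted p = 7.05e-29), with only 3 and 2 reads in controls 2 and 3, while Wnt8b was not (1.87, adjusted p = 0.315). As Fgf8, Fgf17, Wnt3a and Bmp6 were named after their values were seen, their adjusted p-values without control 1 are no test of the pattern.

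**Figure D3:**
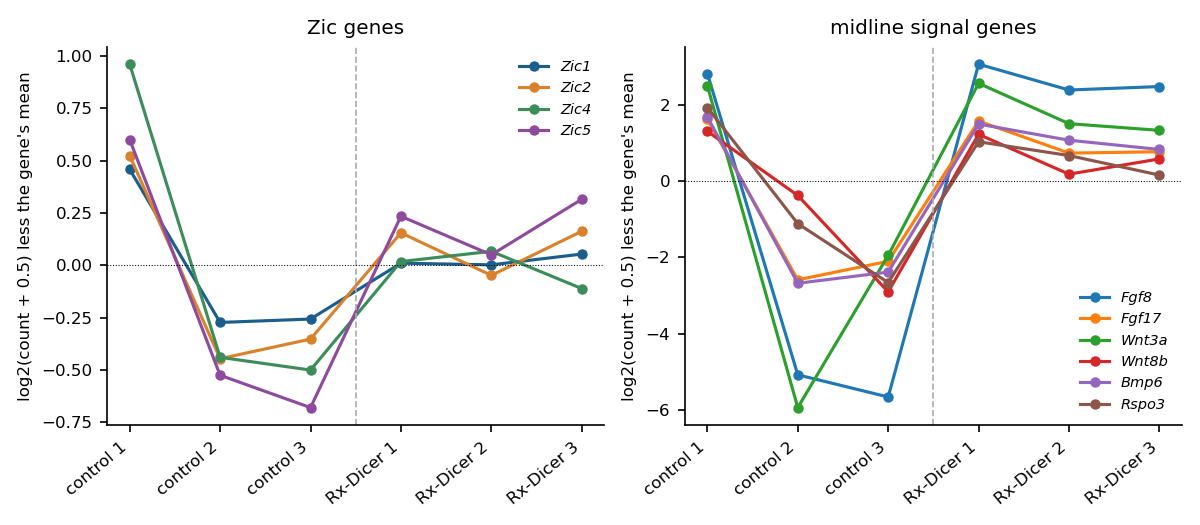
Log2 of the normalized count plus 0.5, less the mean of the gene over the 6 libraries, for the 4 Zic genes (left) and 6 midline signal genes (right, on a wider y axis); the dashed line separates controls from Rx-Dicer libraries. The 4 Zic genes and these 6 midline genes, named after their values were seen, are low in controls 2 and 3. The drop from control 1 is larger for these 6 midline genes.

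The marker lists were then summed by library. Roof plate and hem markers (Wnt3a, Wnt8b, Rspo1 and 6 others) summed to 14947, 5609 and 5033 normalized counts in the controls and to 12989, 9113 and 10016 in the Rx-Dicer libraries, so that the sum had the library order of the Zic genes. Wnt8b and Rspo1 made up most of it in the other libraries, by little in Rx-Dicer 2, but not in control 3. There Msx1, at 2930 of 5033, made up most of it. Only 3 of the 9 genes (Wnt8b, Rspo1 and Rspo2) had that order themselves. Msx1, at 2216, 1383 and 2930 in the controls and 2132, 3290 and 2623 in the Rx-Dicer libraries, and Lmx1a, at 508, 582 and 339 against 496, 455 and 831, did not. Of the 9, Gdf7 and Ttr were near 0 in all libraries, with Gdf7 at most 12.2 and Ttr at most 29.5. Markers of meninges and head mesenchyme, tissue that also expresses Zic genes, summed to 58994, 42063 and 93961 in the controls and to 81584, 67214 and 64266 in the Rx-Dicer libraries. Control 3 had the highest sum of this list and the lowest level of Zic4 and Zic5. Control 2 had its lowest sum and the lowest level of Zic1 and Zic2. Cajal-Retzius markers summed to 11996, 7950 and 7445 in the controls and to 16879, 7347 and 10201 in the Rx-Dicer libraries, where Rx-Dicer 2 was the lowest of all. Hypothalamus markers summed to 2221, 1790 and 2396 in the controls and to 3780, 5580 and 5029 in the Rx-Dicer libraries, without overlap. Of the 8 tested, 4 (Otp, Fezf1, Hmx3 and Foxd1) were called higher, against 300 of all 17127 genes tested (1.75%). In the controls Otp (2.44, 4.07 and 7.52 normalized counts) and Hmx3 (7.33, 0 and 5.64) were near 0. With the first file of each library alone, the call of Otp was lost (adjusted p = 0.0818, DESeq2). Without control 2, the calls of Hmx3 and Foxd1 were lost (adjusted p = 0.246 and 0.153), as they were without control 1 (0.0636 and 0.0795). Globin markers of blood ranged from 295561 to 866794. The part that tissue composition had in the Zic values was not tested.

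Among the 4 genes, levels were compared per kilobase of exon, taken over all annotated exons of a gene (10335 bases for Zic4 and 4889 for Zic5). Zic1 was highest, with a mean of 3643 ± 1125 (SD, n = 3) normalized counts per kb in the controls and 3652 ± 70.5 in the Rx-Dicer libraries. Zic2 came next at 2012 ± 803 and 2179 ± 176. Zic5 was at 469 ± 246 and 572 ± 52.9, and Zic4 was at 429 ± 269 and 378 ± 23.8. Control 1 carried the control SDs, with Zic4 at 740 per kb there against 280 and 269 in controls 2 and 3, and Zic5 at 752 against 345 and 310. Per kb, Zic5 was above Zic4 in each of the 6 libraries, by little in control 1. In the Rx-Dicer libraries its values (514 to 617) were all above those of Zic4 (352 to 398). Before division by length, Zic4 had more normalized counts than Zic5 in each of the 6 libraries. The order of these 2 genes therefore rests on the exon lengths used. Without control 1 as with it, the order per kb was Zic1, Zic2, Zic5 and Zic4. Of the summed counts of the 4 genes, Zic1 made up 58.7% in control 1, 65.6% and 65.8% in controls 2 and 3, and 60.6% to 62.5% in the Rx-Dicer libraries. The share of Zic4 was highest in control 1 (16.0%) and 10.5% to 12.5% elsewhere.

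A ratio within a library does not depend on scaling, and was used to ask whether the paired genes moved apart. The log2 ratio of Zic1 over Zic4 was 1.88, 2.55 and 2.63 in the controls and 2.37, 2.32 and 2.55 in the Rx-Dicer libraries. The groups overlapped, and the difference of 0.06 had an exact permutation p of 1.00 (two-sided, adjusted p = 1.00 over the 2 ratios). Without control 1 the difference was -0.17. The log2 ratio of Zic2 over Zic5 was 1.20, 1.36 and 1.61 in the controls and 1.20, 1.18 and 1.13 in the Rx-Dicer libraries. All Rx-Dicer ratios were below all control ratios, though Rx-Dicer 1 and control 1 were nearly equal, at 2.296 and 2.300 on the linear scale. The difference of -0.22 had an exact permutation p of 0.10, the smallest that 3 against 3 libraries allow, and an adjusted p of 0.20. It was -0.31 without control 1 and -0.11 without control 3, and with the first file of each library alone the groups overlapped (-0.20, exact p = 0.30).

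**Figure D4:**
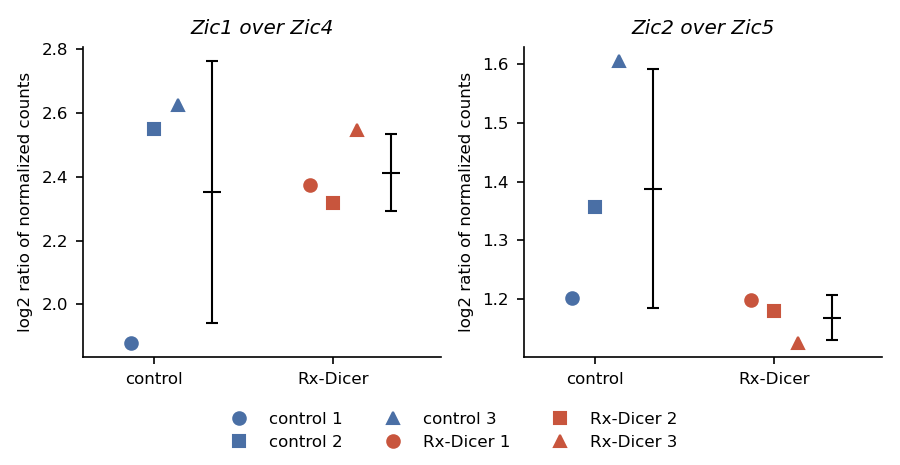
Log2 ratio of normalized counts within each library for Zic1 over Zic4 (left) and Zic2 over Zic5 (right); colors and shapes give group and replicate number, and black bars the group mean ± SD (n = 3). Control 1 has the lowest ratio of Zic1 over Zic4, and the Rx-Dicer ratios of Zic2 over Zic5 lie at 1.13 to 1.20, below the controls.

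Transcripts next to the Zic genes were examined as a further readout of the same regions. Among genes annotated at least in part within 500 kb of the start sites, 7 neighbors of Zic1 and Zic4 and 12 neighbors of Zic2 and Zic5 had at least 10 normalized counts on average, and none was called with all 6 libraries. The order of libraries found in the Zic genes was also that of 2 of the 7 and 3 of the 12, against 1.74% of all genes tested. 2610035F20Rik, a noncoding transcript on the strand opposite to Zic2 that starts 236 bases from it (chr14:122470284-122475199), was at 941, 177 and 155 normalized counts in the controls and at 243, 309 and 252 in the Rx-Dicer libraries. An antisense transcript listed as Gm5089 (ENSMUSG00000115263, chr14:122365239-122406743) was at 760, 91.7 and 81.7 in the controls and at 184, 187 and 240 in the Rx-Dicer libraries. In both, the excess of control 1 over the other controls was larger than in Zic2 or Zic5. This Gm5089 identifier was called higher without control 1 (log2 fold change 1.23, adjusted p = 0.00036, DESeq2), and 2610035F20Rik was not (0.69, adjusted p = 0.058).

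Around Zic1 and Zic4, the long noncoding RNA Gm29478 (chr9:91404474-91562818, plus strand) was at 366, 120 and 129 normalized counts in the controls and at 170, 144 and 173 in the Rx-Dicer libraries, in the order of the Zic genes. A730094K22Rik, an unclassified transcript past the 3′ end of Zic1 (chr9:91350214-91350953, minus strand), was at 274, 130 and 130 in the controls and at 114, 88.6 and 129 in the Rx-Dicer libraries. Its Rx-Dicer values were therefore at or below those of controls 2 and 3, unlike those of Zic1. Control 1 was at least 2-fold above the mean of controls 2 and 3 in 4 of the 7 neighbors of this pair and in 3 of the 12 of the other. Of these, Gm37812 (29.3, 10.2 and 6.58 normalized counts in controls 1 to 3) and 4930594M22Rik (33.0, 9.17 and 9.39) were at low counts. The share of all genes with such an excess was not counted. Pcca, a metabolic gene whose start is 58.9 kb from that of Zic2, had no such excess, at 1678, 1550 and 1599 in the controls and 1529, 1432 and 1614 in the Rx-Dicer libraries.

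**Figure D5:**
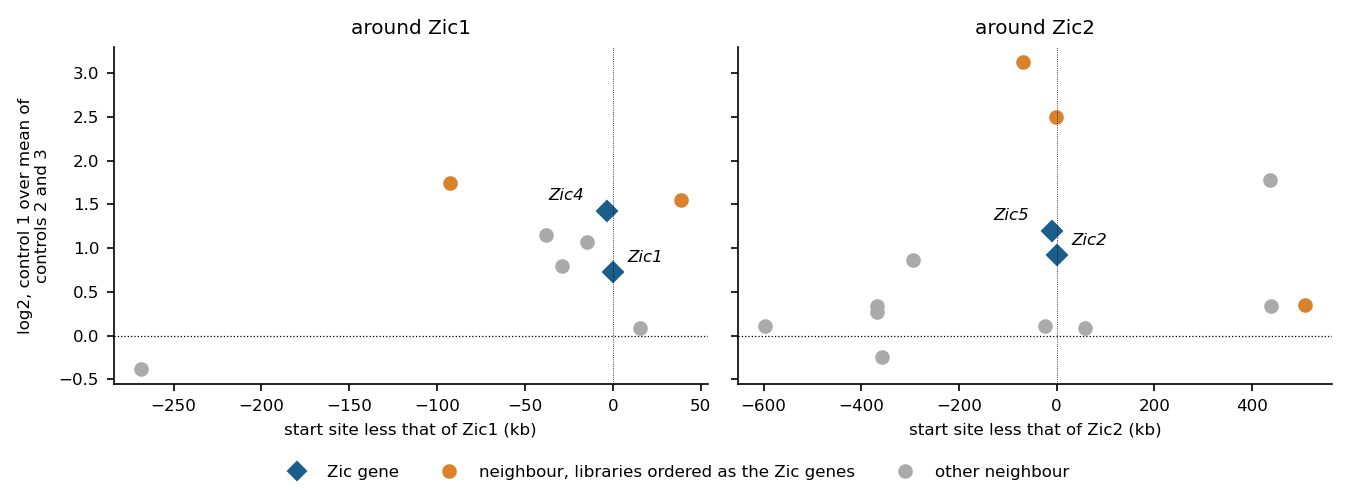
Log2 of the normalized count in control 1 over the mean of controls 2 and 3 (y axis) for the Zic genes (blue diamonds) and their neighbors, against the distance of their start sites from that of Zic1 (left) or Zic2 (right) in kb. Orange points have the library order of the Zic genes, and the highest, on the right, are antisense Gm5089 and 2610035F20Rik.

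Then 9 lists of genes that act with or beside the Zic genes were counted in the same fit, where 2.93% of all genes were called. Of the 10 Zic and GLI family genes none was called. Gli3, the main repressor of Hedgehog targets in the forebrain, differed by a log2 fold change of 0.03 (adjusted p = 0.981). Of the 12 genes for ZIC partners and regulators none was called. The closest was Mdfic, whose product is related to the ZIC inhibitor I-mfa, at 873, 572 and 744 normalized counts in the controls and 1128, 958 and 1148 in the Rx-Dicer libraries (log2 fold change 0.56, adjusted p = 0.051). Among 13 holoprosencephaly and ventral midline genes tested, 2 rose and none fell. Shh, the ventral midline signal, rose from 18.3, 33.6 and 47.9 to 112, 570 and 201 normalized counts (log2 fold change 3.14 ± 0.77, adjusted p = 0.0052). Six3, a forebrain homeobox gene also linked to holoprosencephaly, rose from 1357, 684 and 1048 to 2177, 3018 and 2247 (1.27 ± 0.22, adjusted p = 6.27e-06).

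Of the 20 roof plate, hem and dorsal midline genes tested, the list nearest to the Zic genes in known expression, none was called with all libraries. The library order of the Zic genes was that of 5 (1.74% of all genes), and 6 of 21 were called higher without control 1 (2.49% of all genes). Its median log2 fold change was 0.31, against -0.00090 over all genes tested, and 0.81 without control 1, against -0.0034. Such calls without control 1 were not particular to this list. In that fit 9 of 22 septum and rostral patterning genes were called higher and 2 lower. Of the Zic and GLI family 4 of 10 were called higher, and of the diencephalic genes 0 of 9. The calls in the Zic and GLI family were Zic2, Zic4 and Zic5, already counted above, and 1 GLI-related gene. Of 21 septum and rostral patterning genes tested, Six3 and Otx2 rose, and Etv1 and Pax6 fell. Etv1, a target of FGF signaling, fell from 4966, 2174 and 2362 to 1685, 1601 and 1479 normalized counts (log2 fold change -0.995, adjusted p = 0.0079), so that its Rx-Dicer libraries were below all controls while Zic2 and Zic5 were not. Control 1 was far above the other controls here too, and without it the log2 fold change was -0.52 (adjusted p = 0.0035). Of 10 genes tested of the optic stalk, eye field and ZIC2-dependent axon guidance, Vax1 and Foxd1 rose and Efnb2, the ligand met by retinal axons at the midline, fell (log2 fold change -0.56, adjusted p = 0.00096). Of 12 Cajal-Retzius genes, Lhx1 alone was called (log2 fold change 1.00, adjusted p = 0.0039). Of 18 meninges and head mesenchyme genes, Foxd1 alone was called, and of 9 diencephalic genes tested none was. The median log2 fold changes of these 9 lists lay between -0.01 and 0.70. With 1 library left out at a time, Six3 and Efnb2 stayed called throughout. Shh (adjusted p = 0.0719) and Pax6 (0.0553) lost the call without control 2, and Vax1 lost it without control 2 (0.0660) or Rx-Dicer 2 (0.0509). Etv1 lost it without any 1 of the Rx-Dicer libraries (0.262 to 0.374). Foxd1 lost it also without Rx-Dicer 2 (0.0958) or Rx-Dicer 3 (0.0503). Otx2 lost it without control 2 (0.343), control 3 (0.187), Rx-Dicer 2 (0.279) or Rx-Dicer 3 (0.156), and Lhx1 without control 2 (0.109), control 3 (0.0786), Rx-Dicer 1 (0.0822) or Rx-Dicer 3 (0.0758).

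Finally, protein-coding genes with at least 100 normalized counts on average were ranked by how closely their centered log2 levels matched each Zic gene over the 6 libraries. The closest to Zic1 was Khdrbs2, which encodes an RNA-binding protein, at 365, 221 and 233 normalized counts in the controls and 274, 240 and 274 in the Rx-Dicer libraries, followed by Epb41l4a, Prickle3, Rnf182 and Zfp667. The root mean square distance of these 5 was 0.067 to 0.077 log2 units. Zic2 was matched most closely by Grb14, Ccdc39, Pde4b, Tpbg and Prickle3 (0.080 to 0.096), and Zic1 ranked 9 on its list. Zic5 was matched by Gask1b, Ociad2, Stox1, Fam81a and Spry1 (0.069 to 0.16), with Zic2 at rank 6. Spry1, a feedback inhibitor of FGF signaling, was at 4517, 1637 and 1506 normalized counts in the controls and 3666, 2578 and 2976 in the Rx-Dicer libraries. For Zic4 no gene came as close, and the nearest were Nlgn3, Nkd1, Zcchc12, Grb14 and Spint2 (0.18 to 0.19). Nkd1, an inhibitor of WNT signaling, was at 3209, 1172 and 1311 in the controls and 2293, 1822 and 1926 in the Rx-Dicer libraries. Zic1 stood at rank 20 for Zic4, and Zic4 at rank 2700 for Zic1 among 11929 genes. The distance also counts the size of the differences between libraries. The highest library exceeded the lowest 1.66-fold in Zic1 and 2.75-fold in Zic4, so that these ranks do not show unlike library orders. The ranks share the same 6 libraries and their scaling, and carry no test.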

How the data were processed

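RNA-seq was made from 6 libraries, 3 per genotype, with 2 files each. The authors deposited raw read counts per gene: per the labels and methods, paired 100 bp reads were trimmed with Trim Galore 0.6.5, aligned to GRCm38.p6 with HISAT2 and counted by strand with HTSeq 0.12.4. Reads that fell on more than 1 gene were left out of the gene counts. The files of a library agreed nearly within sampling noise (chi-square per degree of freedom 1.11 to 1.47) and were summed.

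All genes were fitted with DESeq2 1.42.0 in R 4.3.3 (Wald test, median-of-ratios size factors, Benjamini-Hochberg adjustment with independent filtering, unshrunken fold changes), the tool of the study. Genes were called where the adjusted p was below 0.05 and the change exceeded 1.25-fold. Alternatives were edgeR 4.0.16 (quasi-likelihood test, at least 10 counts in at least 3 libraries), TMM and total-count scaling, a low-count filter, no independent filtering, an adjusted p under 0.1, protein-coding genes only, single files, a replicate block, splines for gene length and GC content, and each library left out. edgeR without control 1 and the list counts under each alternative were added after the data were seen. The fits were tested on simulated data. Ratios used normalized counts plus 0.5 and an exact permutation test over libraries.

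The Zic genes, gene lists and marker lists were chosen with earlier results of these data known, and 2 genes of the lists are not reported here. Named were the Zic genes, called genes of the lists, neighbors within 500 kb with a mean of at least 10 normalized counts, the 5 closest coding genes per Zic gene and Dicer1. Midline genes in the library comparison, and Dlx2, Gsx2, Gli3 and Mdfic, were named after their values were seen. Of the identifiers, 55230 were in GENCODE M21. Same-numbered controls and Rx-Dicer libraries did not pair (correlations of deviations 0.19, 0.04 and -0.14).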

Additional observations from a re-analysis of the deposited data

How the results depend on the processing

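With all 6 libraries, no alternative called a Zic gene. Zic2 and Zic5 stayed above 0 and Zic4 below 0 in those alternatives, whereas Zic1, close to 0, changed sign to -0.0043 with protein-coding genes only, -0.072 with the length and GC correction and -0.038 with the replicate block and that correction together. Under the replicate block alone the log2 fold changes were 0.05 (Zic1), 0.18 (Zic2), -0.01 (Zic4) and 0.40 (Zic5), and no Zic call changed. Leaving out 1 library gave -0.12 to 0.29 for Zic1, -0.057 to 0.49 for Zic2, -0.43 to 0.46 for Zic4 and 0.061 to 0.80 for Zic5. The highest of each was without control 1, where 3 Zic genes were called, and edgeR without control 1 gave 0.48 for Zic4 with no call. The log2 ratio difference of Zic1 over Zic4 ran from -0.17 (without control 1) to 0.20.

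The number of all genes called fell from 502 to 8 with edgeR, 322 without independent filtering, 314 with the replicate block, 298 with both block and correction and 19 with edgeR without control 1. It was 286 to 637 with 1 library left out, the lowest without control 2. At an unadjusted p under 0.05, DESeq2 had 2324 genes and edgeR 2313. Distinct genes called in the 9 lists went from 9 to 0 with edgeR, 14 at an adjusted p under 0.1, 21 with the replicate block, 18 with both, and 3 with edgeR without control 1, and were 3 (without control 2) to 34 (without control 1) with 1 library left out; without control 3 they were 17. The 12 called genes of the gene and marker lists kept their direction in every alternative where DESeq2 or edgeR gave an adjusted p, and fell short of a call in 58 fits of single genes, against 160 in which they passed. The causes were not tested. With 3 libraries per genotype the intervals of the Zic genes stay wide.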
